A study of Mus musculus with 8 samples.

Results

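Chromosome 2 of mouse embryonic stem cells (mESCs) was read from Hi-C maps as the 364 bins of 500 kb that cover it in the mm9 build. A bin was left out where its coverage was below 0.1 of the chromosome's median in any sample, which removed 9 bins, 6 of them at the centromere-proximal end from 0 to 3 Mb and 3 between 175 and 176.5 Mb. The 355 bins kept are part of 5093 kept over the autosomes and chromosome X. The chromosome was chosen by its fall in contact frequency beyond 10 Mb, already known from these maps, and its blocks were selected on the sign of an eigenvector of the same maps. The values within it are therefore given as a description of these samples.

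Hi-C counts how often pairs of genomic segments are joined by ligation in fixed nuclei. At the megabase scale a chromosome folds into 2 compartments. The A compartment is gene-rich, transcribed and dense in B1 repeats, and the B compartment is gene-poor, heterochromatic, dense in L1 repeats and often near the lamina or the nucleolus. Segments of one kind meet preferentially, also over long distances, which gives the plaid pattern of a contact map. Mouse chromosome 2 alternates between gene-dense stretches and gene deserts, and it carries the HoxD cluster, a cluster of sodium channel genes and many olfactory receptor genes. No gene was placed in a block here, since the annotation at hand is of another build.

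The cells had been nucleofected with an antisense morpholino oligo (AMO) against L1 RNA (L1 AMO) or with a scrambled one (SCR AMO), each at 5 nmol per 100 µl, sorted at 12 h and harvested at 36 h. There were 2 Hi-C samples per group, 4 in all, and the groups share nucleofection and sorting. The labels of these samples name the cells only as mouse ESCs, with no line, and the study describes the replicates as independent experiments. The oligo is the labelled difference between the groups. Both designed sequences have 25 bases and are shown whole, in lower case, from 5′ to 3′.
L1 AMO: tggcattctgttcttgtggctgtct
SCR AMO: cctcttacctcagttacaatttata
The L1 AMO has a GC content of 48% and the SCR AMO of 32%.

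The maps held 112381720 and 22252054 contacts with SCR AMO and 58030519 and 46263849 with L1 AMO. Inside chromosome 2 there were between 1304239 and 6664908 contacts per sample, and a pair of bins more than 10 Mb apart held a mean of 4.41 to 24.3 counts. Single pairs of bins are therefore sparse, and values are given as means over many pairs. On bin pairs of chromosome 2 with at least 50 counts, the chi-square per degree of freedom was 1.04 for the pair of SCR AMO maps and 1.21 for the pair of L1 AMO maps, against 2.39 to 2.99 for a sample of each group. Exact permutation tests, all two-sided, cannot give a p below 0.333 for 2 samples against 2, and p-values here measure only the spread between these samples.

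The groups also stood apart in raw coverage. Chromosome 1 held 0.988 and 0.991 times the mean contacts per bin with SCR AMO, and 1.35 and 1.37 times with L1 AMO. Chromosome 14 held 0.877 and 0.878 times the mean, and 1.16 and 1.17 times with L1 AMO. Both chromosomes were thus covered more deeply in both L1 AMO maps, and the remaining 18 chromosomes had ratios of L1 AMO to SCR AMO from 0.908 to 1.01. Chromosome 2 was at 1.06 in both SCR AMO maps and at 1.01 in both L1 AMO maps. A difference between the cells of the 2 groups and the oligo cannot be told apart with this design. Values within chromosome 2 are also given with balancing on that chromosome alone, where no contact with another chromosome enters the balancing.

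**Figure D1:**
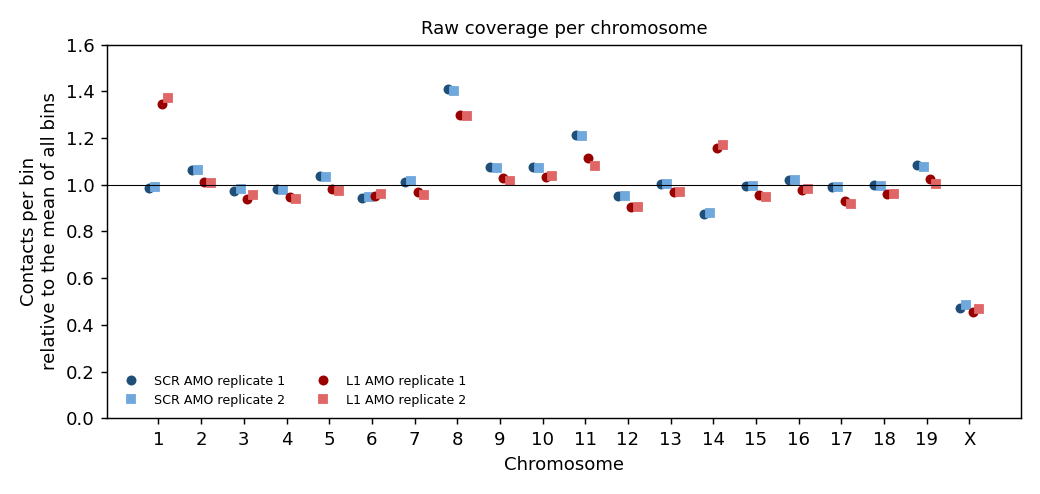
Raw contacts per 500-kb bin of each chromosome, relative to the mean of all kept bins, with 1 point per sample. Chromosomes 1 and 14 lie higher in both L1 AMO maps, at 1.35 and 1.37 and at 1.16 and 1.17, while chromosome 2 lies close to 1 in the 4 samples.

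Long-range contacts of chromosome 2 were fewer and mid-range contacts more frequent with L1 AMO. Contacts beyond 10 Mb made up 20.3% and 18.9% of the chromosome's balanced contact frequency with SCR AMO and 17.5% and 16.8% with L1 AMO. Contacts above 2 and up to 10 Mb made up 9.83% and 9.06% with SCR AMO and 11.4% and 11.2% with L1 AMO. In both ranges the groups did not overlap. Up to 2 Mb they did, at 69.9% and 72.1% with SCR AMO and 71.2% and 72.0% with L1 AMO. The fall beyond 10 Mb, of 2.46 percentage points, was the largest of 20 chromosomes, which is why the chromosome was chosen, and relative to its level it was number 3 in rank.

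Along the distance axis the sign changed more than once. As a log2 ratio, L1 AMO over SCR AMO was -0.13 between neighbouring bins, with the 4 ratios between samples running from -0.16 to -0.09. It was 0.26 between 2 and 10 Mb (range 0.19 to 0.32). It was -0.11 between 10 and 40 Mb (range -0.17 to -0.06). The loss grew with distance, to -0.27 between 40 and 80 Mb, -0.47 between 80 and 120 Mb and -0.52 beyond 120 Mb, and in each of these bands both L1 AMO maps lay below both SCR AMO maps. Such contacts are few. Those between 80 and 120 Mb made up 1.06% to 1.64% of the contact frequency per sample, and those beyond 120 Mb 0.401% to 0.657%.

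**Figure D2:**
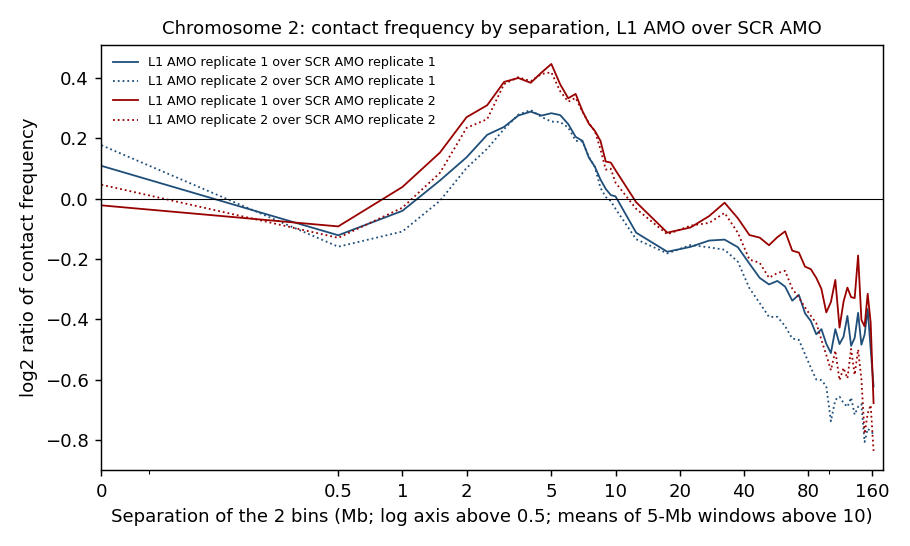
Log2 ratio of balanced contact frequency of chromosome 2 against the separation of the 2 bins in Mb, with 1 line for each of the 4 ratios of an L1 AMO sample to an SCR AMO sample. The lines lie above 0 over most of the range from 2 to 10 Mb, where the group ratio was 0.26, and below 0 at longer distances, where it reached -0.52 beyond 120 Mb.

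Most bins kept their compartment. Eigenvector 1 (E1) of the correlation matrix of the observed/expected map ranks bins from B (negative) to A (positive), where observed/expected is the contact frequency divided by the chromosome's mean at the same distance. On the mean map of the 4 samples 166 bins had a positive E1 and 189 a negative one. Across the 355 bins, which share libraries and neighbours, E1 had Pearson's r of 0.979 to 0.994 between the 4 samples. A ranking from contacts with other chromosomes alone had r of 0.969 with E1. The sign of E1 differed between the groups in 16 bins, all A in both SCR AMO maps and B in both L1 AMO maps. These bins lay near the boundary, with an absolute E1 of at most 0.215 against a median of 1.10 over the chromosome. The median E1 was -0.11 and -0.02 with SCR AMO and -0.34 and -0.39 with L1 AMO. After each eigenvector was centred on its median, 3 bins differed in sign, 1 from A to B and 2 from B to A.

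Runs of at least 2 bins of 1 sign gave 19 A blocks with a median length of 2 Mb and 18 B blocks with a median of 3.5 Mb, while 5 runs were a single bin. The 6 longest of each kind are described one by one, named in roman numerals from the centromere. The A blocks were A-i from 24 to 36 Mb, A-ii from 69 to 77.5 Mb, A-iii from 118 to 122 Mb, A-iv from 125.5 to 132.5 Mb, A-v from 150 to 159 Mb and A-vi from 162.5 to 182 Mb. The B blocks were B-i from 39 to 49 Mb, B-ii from 61 to 69 Mb, B-iii from 77.5 to 90.5 Mb, B-iv from 94 to 101.5 Mb, B-v from 105 to 118 Mb and B-vi from 132.5 to 143.5 Mb. The longest B blocks lie in the middle of the chromosome and the longest A block at its distal end.

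Contrast between the compartments was lower with L1 AMO. It was measured in the corners of the ranking, the 20% of bins at each end of E1. The observed/expected frequency of A-B pairs was 0.386 and 0.385 with SCR AMO and 0.487 and 0.507 with L1 AMO. Pairs of A bins were at 1.98 in both SCR AMO maps and at 1.79 and 1.73 with L1 AMO. In both measures the groups lay far apart compared with the spread between replicates. Pairs of B bins were at 1.34 and 1.33 with SCR AMO and at 1.27 in both L1 AMO maps, but this fall depended on the balancing. With chromosome 2 balanced on its own, the B-B values were 1.24 and 1.24 against 1.22 and 1.24, and the groups overlapped. Without balancing they overlapped as well, with a difference of 0.038 in the opposite direction.

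Compartment strength averages the A-A and B-B values and divides by A-B. It was 4.29 and 4.30 with SCR AMO. It was 3.14 and 2.96 with L1 AMO. The group means of 4.30 ± 0.00680 (SD, n = 2) and 3.05 ± 0.126 (SD, n = 2) differed by -1.25, with an exact permutation p of 0.333, the smallest possible. With chromosome 2 balanced alone the difference was -1.28 and without balancing -1.51. In the SCR AMO samples, chromosome 2 had the highest A-A value and a strength that ranked number 3 of 20 chromosomes. On each of these 20 chromosomes strength and the A-A value were lower, and the A-B value higher, in both L1 AMO maps. Set against chromosome 3, a gene-poor chromosome, strength was higher on chromosome 2 by 1.65 and 1.56 with SCR AMO and by 1.07 and 0.955 with L1 AMO. The gap between these chromosomes was thus narrower in both L1 AMO maps (exact permutation p = 0.333). Such a gap also narrows where both strengths fall by the same share. Relative to the SCR AMO level, strength changed by -29.0% on chromosome 2, number 6 in rank, and by -24.4% on chromosome 3. The difference between these chromosomes in the A-B value overlapped between the groups.

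**Figure D3:**
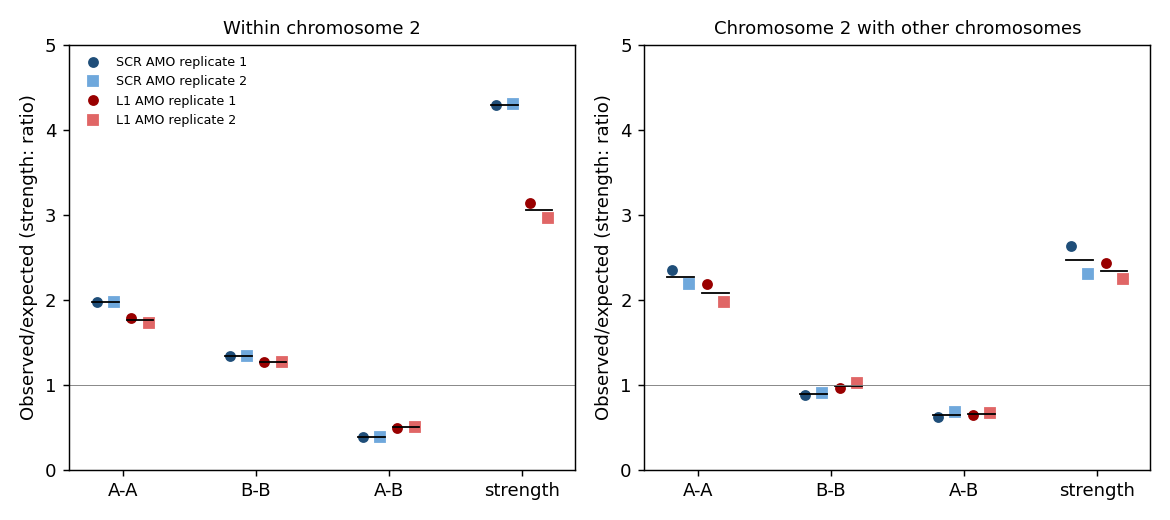
Observed/expected contact frequency of the A-A, B-B and A-B corners and compartment strength, within chromosome 2 (left) and between chromosome 2 and the other chromosomes (right), with 1 point per sample and a bar at each group's mean of 2 samples. Strength within the chromosome falls from 4.30 to 3.05, whereas between chromosomes the groups overlap.

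The 3 kinds of pairs moved differently with distance. A-A pairs between 10 and 40 Mb apart had an observed/expected value of 1.37 in both SCR AMO maps and of 1.22 and 1.17 with L1 AMO. Between 80 and 120 Mb they were at 1.85 and 1.86 with SCR AMO and at 1.67 and 1.64 with L1 AMO. A-A values were lower in both L1 AMO maps in each band from 2 to 120 Mb, with all 3 ways of balancing, and overlapped beyond 120 Mb. At 0.5 Mb and from 1 to 2 Mb the A-A value was higher with L1 AMO with genome-wide balancing, at log2 ratios of 0.12 and 0.12, but without balancing the groups overlapped.

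A-B pairs filled in over the same range. Between 2 and 10 Mb they were at 0.761 and 0.762 with SCR AMO and at 0.844 and 0.853 with L1 AMO. Between 10 and 40 Mb they were at 0.700 in both SCR AMO maps and at 0.776 and 0.791 with L1 AMO. The rise was smaller further out, with log2 ratios of 0.07 between 40 and 80 Mb and 0.04 between 80 and 120 Mb. A-B values were higher in both L1 AMO maps in each band from 1 to 120 Mb with all 3 ways of balancing. Beyond 120 Mb, with genome-wide balancing, they were lower with L1 AMO, at 0.584 and 0.600 against 0.614 and 0.623 with SCR AMO. With chromosome 2 balanced alone and without balancing the groups overlapped there.

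B-B pairs went up at long range. Between 40 and 80 Mb they were at 1.16 in both SCR AMO maps and at 1.21 and 1.22 with L1 AMO. Between 80 and 120 Mb they were at 0.893 and 0.881 with SCR AMO and at 1.03 and 1.04 with L1 AMO. With genome-wide balancing, B bins at this distance met less often than the chromosome's mean with SCR AMO and slightly more often with L1 AMO. The L1 AMO values were 0.997 and 1.02 with chromosome 2 balanced alone and 0.901 and 0.966 without balancing. Beyond 120 Mb, with genome-wide balancing, B-B values were 0.593 and 0.614 with SCR AMO and 0.659 and 0.705 with L1 AMO. The rise beyond 40 Mb was present with all 3 ways of balancing, at log2 ratios from 0.07 to 0.16 between 40 and 80 Mb and from 0.22 to 0.35 between 80 and 120 Mb. At shorter distances the B-B values depended on the balancing. Between 10 and 40 Mb the log2 ratio was -0.03 with genome-wide balancing, 0.01 with chromosome 2 balanced alone and 0.05 without balancing. Observed/expected values are relative to the mean at each distance, so that a rise of B-B beyond 40 Mb goes with a fall of all contacts there.

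**Figure D4:**
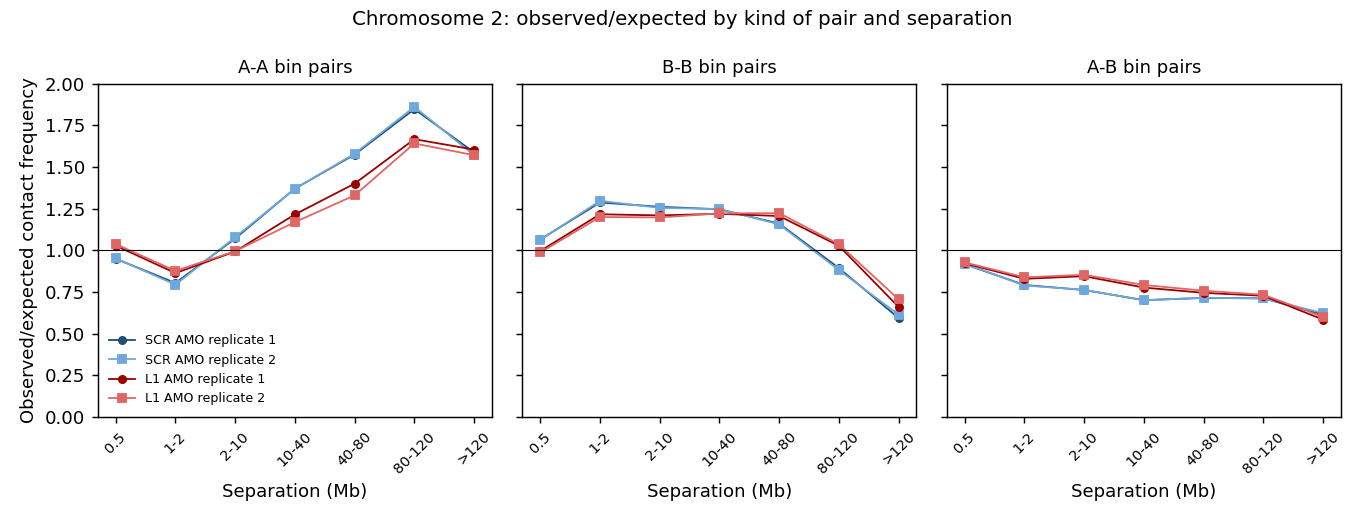
Observed/expected contact frequency of A-A, B-B and A-B bin pairs of chromosome 2 by separation in Mb, with 1 line per sample. A-A values are lower with L1 AMO from 2 to 120 Mb, A-B values higher from 1 to 120 Mb, and B-B values cross near 40 Mb, where genome-wide balancing was used.

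Raw counts summed over pairs of blocks gave a test with all 4 samples. Of 666 pairs of blocks on chromosome 2, 655 had at least 10 counts on average. With edgeR's quasi-likelihood test, TMM normalization and Benjamini-Hochberg adjustment over all 8996 block pairs of the autosomes and chromosome X, 230 pairs of chromosome 2 fell at a false discovery rate of 0.05 and 82 rose. Over all chromosomes 25.2% of block pairs fell and 25.4% rose. Chromosome 2 was chosen by the same contrast, so its counts are read only as a description. Of the A-A pairs of chromosome 2, 123 of 170 fell and 7 rose, against 58.9% and 10.3% of the A-A pairs of all chromosomes. Of the B-B pairs, 22 of 150 rose and 8 fell, against 30.6% and 10.9%. Of the A-B pairs, 53 of 335 rose and 99 fell, against 28.7% and 19%. The shares of block pairs of all chromosomes, here and below, include chromosomes 1 and 14. Their raw coverage was 1.37 and 1.33 times as high with L1 AMO as with SCR AMO, against 0.950 for chromosome 2. Without both in the fit, 106 pairs of chromosome 2 rose and 179 fell. How far they shift the shares of all chromosomes was not tested.

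The calls were spread unevenly over distance, on chromosome 2 as over all chromosomes. Up to 10 Mb, 47 of 65 block pairs rose and 2 fell, against 77.9% and 2.08% of all pairs at these distances. Each of the 10 B-B pairs rose, against 92.1% over all chromosomes. Between 10 and 40 Mb, 39 of 47 A-A pairs fell and 1 rose, against 60.4% and 11.5%. At the same distances 20 of 93 A-B pairs rose and 9 fell, against 35.2% and 4.70%. Rises were thus more frequent up to 10 Mb than between 10 and 40 Mb. Beyond 80 Mb, 41 of 63 A-A pairs fell and 1 rose, against 61.6% and 0.708%. Of 113 A-B pairs 55 fell and 0 rose, against 40.2% and 2.15%. Of 53 B-B pairs 4 fell and 0 rose, against 24.4% and 6.04%.

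With the expected count at the same distances as an offset, which asks whether a pair changed beyond the change at its distance, 129 pairs of chromosome 2 rose and 88 fell, against 20.2% and 14.7% of the pairs of all chromosomes. In that fit 70 of 170 A-A pairs fell and 1 rose, against 52.4% and 1.21% over all chromosomes. Of 150 B-B pairs 65 rose and 1 fell, against 32.8% and 2.90%. Of 335 A-B pairs 63 rose and 17 fell, against 21.2% and 5.59%. The balance of calls depended on the scaling, and the median log2 change of the pairs of chromosome 2 was -0.15 with TMM normalization, -0.28 without it and 0.04 with the offset. Without TMM normalization, which shifted the median log2 change of all block pairs from -0.02 to -0.15, 44 pairs rose and 337 fell. Without chromosomes 1 and 14 in the fit, a choice made after seeing the data, 106 rose and 179 fell. In each of these fits more A-A pairs of chromosome 2 fell than rose, as in the fits without 1 sample. With TMM normalization and without SCR AMO replicate 1, 49 pairs rose and 124 fell, among them 2 and 80 of the A-A pairs, 11 and 0 of the B-B pairs and 36 and 44 of the A-B pairs.

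Among the 12 longest blocks there were 66 pairs, each with between 185 and 45092 counts per sample. All 15 A-A pairs had a lower contact frequency per bin pair in both L1 AMO maps than in both SCR AMO maps, and all 15 fell in the edgeR test with TMM normalization, against 58.9% of the A-A block pairs of all chromosomes. With the distance offset 13 of the 15 fell and 2 were not called, against 52.4%. The largest loss was between A-i and A-iv, with centres 99 Mb apart. The mean contact frequency of their bin pairs, per 1000000 of the chromosome's total, was 3.14 and 2.85 with SCR AMO and 1.91 and 1.66 with L1 AMO, a log2 ratio of -0.74. As observed/expected values, the pair was at 2.25 and 2.22 and fell to 1.90 and 1.87 (edgeR with the distance offset, adjusted p = 2.38e-07). The smallest loss was between A-v and A-vi at the distal end, with centres 17.75 Mb apart and short blocks in the 3.5 Mb between them. Their contact frequency was 9.33 and 8.76 with SCR AMO and 8.20 and 8.11 with L1 AMO, a log2 ratio of -0.15.

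The most distant pair of the longest A blocks fell in contact frequency but not in observed/expected value. A-i and A-vi, with centres 142.25 Mb apart, were the most distant A-A pair. Their contact frequency was 2.27 and 2.10 with SCR AMO and 1.71 and 1.41 with L1 AMO, a log2 ratio of -0.48. In the edgeR test with TMM normalization the pair fell (adjusted p = 1.25e-08). Their observed/expected value was 2.11 and 2.10 with SCR AMO and 2.15 and 2.16 with L1 AMO. With the distance offset the edgeR adjusted p was 0.876. Of the 6588 bin pairs beyond 120 Mb, 2631 were A-A, so a loss shared by A-A pairs also lowers the expected value there. The ratio and the offset test can therefore hardly show such a loss. The closest A-A pair, A-iii and A-iv, had centres 9 Mb apart. Its observed/expected values were 1.57 and 1.63 with SCR AMO and 1.25 and 1.18 with L1 AMO. This log2 ratio of -0.40 was the lowest of the 15 A-A pairs on that scale.

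A and B blocks met more often where they lay close. Of the 16 A-B pairs with centres up to 40 Mb apart, 13 had a higher contact frequency in both L1 AMO maps, and all 16 had a higher observed/expected value. A-i and B-i, separated by 3 Mb, showed the largest rise of the 36 A-B pairs. Their contact frequency was 3.61 and 3.33 with SCR AMO and 5.24 and 5.35 with L1 AMO, a log2 ratio of 0.61. Their observed/expected value rose from 0.396 and 0.389 to 0.592 and 0.615 (edgeR with the distance offset, adjusted p = 7.25e-25), so that the pair still met less often than the mean at its distance. B-ii and A-ii, which adjoin, had 12.9 and 12.2 with SCR AMO and 15.5 in both L1 AMO maps, a log2 ratio of 0.31.

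Distant A-B pairs lost frequency. Of the 20 pairs beyond 40 Mb, 15 were lower in both L1 AMO maps and 1 was higher. The lowest was B-ii with A-vi, at 0.764 and 0.692 with SCR AMO and 0.518 and 0.447 with L1 AMO, a log2 ratio of -0.59. On the observed/expected scale 12 of these 20 pairs were higher and 5 lower. The most distant A-B pair, B-i with A-vi, had observed/expected values of 0.442 and 0.460 with SCR AMO and of 0.445 and 0.460 with L1 AMO, which overlapped.

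B-B pairs had smaller log2 ratios in contact frequency, which is relative to the chromosome's total, whereas the edgeR test is relative to all block pairs. Of the 15 B-B pairs, 14 were lower in both L1 AMO maps, with log2 ratios from -0.27 to -0.08. In the edgeR test with TMM normalization 2 fell, 0 rose and 13 were not called. Of the B-B block pairs of all chromosomes, 10.9% fell and 30.6% rose. The closest pairs were B-iii with B-iv and B-iv with B-v, both with centres 13.75 Mb apart, at log2 ratios of -0.08 and -0.12 with balancing. The first of them was at 0.01 without balancing. The most distant pair, B-i and B-vi, with centres 94 Mb apart, had a contact frequency of 1.13 in both SCR AMO maps and of 1.02 and 0.921 with L1 AMO. Its observed/expected value went from 0.747 and 0.816 to 0.929 and 0.937, and with the distance offset it rose (edgeR adjusted p = 2.87e-08). Of the 7 B-B pairs beyond 40 Mb, 4 were higher on this scale with genome-wide balancing, and all 7 were higher with chromosome 2 balanced alone and without balancing.

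**Figure D5:**
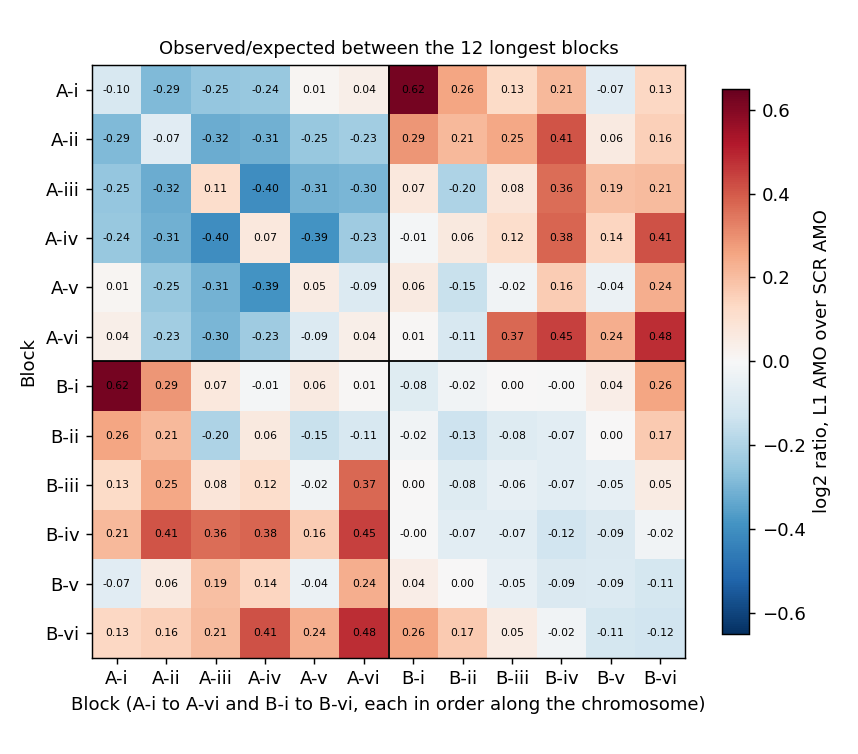
Log2 ratio, L1 AMO over SCR AMO, of observed/expected contact frequency between the 12 longest blocks of chromosome 2, computed on group means of balanced maps, with contacts inside a block on the diagonal. The A-A quadrant is mostly negative (down to -0.40 for A-iii with A-iv), the A-B quadrants mostly positive (up to 0.62 for A-i with B-i), and the B-B quadrant lies between -0.13 and 0.26. Ratios inside blocks and of near B-B pairs depend on the balancing.

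Seen block by block, each of the 6 longest A blocks met the other A bins beyond 2 Mb less often in both L1 AMO maps. A-ii went from 1.72 in both SCR AMO maps to 1.48 and 1.43 in observed/expected frequency, and A-iv from 1.61 and 1.63 to 1.36 and 1.33. The change was smaller for A-i, from 1.79 and 1.77 to 1.70 and 1.65, and for A-vi, from 1.48 and 1.49 to 1.40 and 1.37. Over all 19 A blocks, 18 were lower in both L1 AMO maps, and 18 were lower with chromosome 2 balanced alone and without balancing. The A-A corner was lower in both L1 AMO maps on each of the 20 chromosomes, so the direction is not particular to chromosome 2.

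On the observed/expected scale, each of the 6 longest B blocks met the A bins beyond 2 Mb more often in both L1 AMO maps. In contact frequency, 15 of the 20 A-B pairs of the longest blocks beyond 40 Mb were lower, as given above. B-iv moved most, from 0.547 in both SCR AMO maps to 0.653 and 0.675. B-vi went from 0.610 and 0.607 to 0.700 and 0.717. B-ii moved least, from 0.766 and 0.770 to 0.777 and 0.776. Over all 18 B blocks the direction was mixed, with 10 higher in both L1 AMO maps, 5 lower and 3 that overlapped. Contacts inside the 6 B blocks were lower in both L1 AMO maps with genome-wide balancing, from log2 ratios of -0.13 for B-ii to -0.06 for B-iii, but without balancing 3 of the 6 overlapped. Of all 18 B blocks, 14 had higher observed/expected values with other B bins beyond 2 Mb in both L1 AMO maps, and all 18 did so without balancing. In contact frequency, 14 of the 15 pairs of the longest B blocks were lower.

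Every bin also received a segregation value, the log2 of its mean observed/expected frequency with bins of its own compartment over that with the other, beyond 2 Mb. The median over the A bins, on means of each group, was 1.22 with SCR AMO and 0.99 with L1 AMO, and over the B bins it was 0.81 and 0.75. In limma, with Benjamini-Hochberg adjustment over all 5093 bins, 155 of the 355 bins of chromosome 2 fell and 17 rose, against 42.8% and 4.52% of all bins. Chromosome 2 was thus close to the rest of the genome in this count. Of its 166 A bins 93 fell and 0 rose, against 59.8% and 0.389% of all A bins, with 107 at an unadjusted p under 0.05 in either direction. Of its 189 B bins 62 fell and 17 rose, against 28.6% and 7.95% of all B bins. Both kinds of bins were thus near the genome's shares. Without L1 AMO replicate 2, 103 bins fell and 7 rose, and without SCR AMO replicate 2 123 fell and 9 rose.

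Segregation is given block by block as a description, beside the 59.8% of all A bins and 28.6% of all B bins that fell. In A-ii 16 of 17 bins fell and in A-iv 13 of 14, with mean changes of -0.38 and -0.39. In A-v 3 of 18 bins fell, with a mean change of -0.11. Among the B blocks, 12 of 15 bins fell in B-iv, with a mean change of -0.32, whereas in B-ii 3 of 16 fell and 3 rose, with a mean change of -0.02.

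The bin from 129.5 to 130 Mb, inside A-iv, had the largest fall, from 1.57 and 1.51 with SCR AMO to 0.97 and 0.88 with L1 AMO (limma log2 difference -0.62, SE 0.07, adjusted p = 0.000753). The bin from 75 to 75.5 Mb, inside A-ii, fell from 1.03 and 0.91 to 0.50 and 0.36. The bin from 128 to 128.5 Mb, again in A-iv, fell from 1.56 and 1.64 to 1.07 and 1.05. Each of these bins was lower in both L1 AMO maps than in both SCR AMO maps and still favoured its own compartment.

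The largest rise was in the bin from 3.5 to 4 Mb, in the short B block from 3 to 4 Mb next to the stretch that was left out. This bin is labelled B by the mean map of the 4 samples, but its sign differed between the groups. Its E1 was 0.12 and 0.16 with SCR AMO and -0.28 and -0.33 with L1 AMO. Its segregation value, computed as for a B bin, went from -0.13 and -0.17 with SCR AMO to 0.22 and 0.26 with L1 AMO (limma log2 difference 0.39, SE 0.07, adjusted p = 0.00177). The bin from 61 to 61.5 Mb, at the edge of B-ii, went from 0.09 and -0.16 to 0.21 and 0.34, and the bin from 159 to 159.5 Mb, in a short B block beside A-v, from 0.09 and 0.14 to 0.39 and 0.45. Of the 17 bins that rose, all B by the mean map, 4 lay in the 6 longest B blocks. The labels, here and in the correlations below, come from that map, which includes the L1 AMO samples. For a bin whose sign differed between the groups, the direction of the change depends on its label. Across the B bins the change had a Pearson's r of -0.76 with the strength of the B signal (absolute E1, n = 189 bins that share libraries and E1), so that the changes were lower where the B signal was stronger. Among the 166 A bins the corresponding r was -0.23.

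An example window from 140 to 170 Mb holds 60 bins in 10 blocks. Its A-B pairs beyond 2 Mb were at 0.593 and 0.585 with SCR AMO and at 0.678 and 0.711 with L1 AMO. A-A pairs were at 1.04 and 1.06 and fell to 0.931 and 0.936, and B-B pairs were at 1.40 and 1.41 and fell to 1.31 and 1.30. For none of the 3 kinds did the groups overlap with genome-wide balancing, the only one given for the window. Over the whole chromosome the B-B values at less than 40 Mb depended on the balancing.

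Contacts of chromosome 2 with other chromosomes were not used to choose it. Contacts with chromosome 1 set which sign of E1 is called A, and contacts between chromosomes entered the genome-wide balancing. Contacts with other chromosomes made up 33.4% and 34.3% of all its contacts with SCR AMO and 24.9% and 22.8% with L1 AMO (exact permutation p = 0.333, the smallest possible). Without chromosomes 1 and 14, the shares were 30.7% and 31.5% against 21.8% and 19.8%. Counted from the bins, with each contact inside the chromosome seen from both ends, the share fell from 27.0% and 27.8% to 18.97% and 16.96% in A bins. In B bins it fell from 19.5% and 21.1% to 15.1% and 14.4%. Bins of both kinds thus had a lower share in both L1 AMO maps. Over the whole maps, contacts between chromosomes made up 22.3% and 22.8% with SCR AMO and 15.8% and 14.2% with L1 AMO. The lower share was therefore not particular to chromosome 2.

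Between chromosomes, the groups overlapped in compartment strength. The strength between chromosome 2 and the others was 2.63 and 2.30 with SCR AMO and 2.43 and 2.24 with L1 AMO, which overlapped (exact permutation p = 0.667). Its A-B value was 0.614 and 0.672 with SCR AMO and 0.645 and 0.669 with L1 AMO. The B-B value was higher in both L1 AMO maps, at 0.955 and 1.02 against 0.879 and 0.908 (exact permutation p = 0.333). The A-A value was 2.35 and 2.19 against 2.18 and 1.98, and without chromosomes 1 and 14 its groups overlapped.

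Chromosomes 1 and 14, whose raw coverage differed, were also the partners whose raw shares were higher in both L1 AMO maps. Chromosome 1 took 7.28% and 7.45% of the contacts of chromosome 2 with other chromosomes with SCR AMO and 9.89% and 10.2% with L1 AMO. Chromosome 14 took 4.44% and 4.48%, and then 5.85% and 5.92%. Of the other 17 partners 14 were lower in both L1 AMO maps and 3 overlapped. After genome-wide balancing, the share of chromosome 1 was 7.40% and 7.55% against 8.46% and 8.59%, and that of chromosome 14 was 4.91% and 4.93% against 5.49% and 5.52%. Of the other 17 partners, 11 were then lower, 4 overlapped and 2, chromosomes 6 and 8, were higher, by log2 ratios of at most 0.02. Balancing thus narrowed both gaps of chromosomes 1 and 14 and did not close them, and what lay behind the coverage was not tested.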

How the data were processed

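The authors deposited unnormalized counts of contacts between 500-kb bins of mm9, made with HiC-Pro (version 2.7.1b per the labels) from sisHi-C, an in situ Hi-C protocol for few cells. Mapping options and duplicate removal are not given in the sources used here. The SCR AMO matrices depart from the study's own table of valid pairs and the L1 AMO ones do not, so a difference in upstream steps and the oligo cannot be told apart. The 2 matrices of each L1 AMO sample were added. The 4 H3K9me3 ChIP samples are not analysed here.

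Bin numbers follow the mm9 chromosomes by name. The 5093 kept bins were balanced genome-wide by iterative correction. The sign of E1 came from the study's repeat ratio on chromosome 1 and from contacts with chromosome 1 elsewhere. Members, blocks, lists and tests were chosen with earlier results of these data known. The regions named were the 6 longest blocks of each kind, the window from 140 to 170 Mb, per kind of block pair the lowest, highest, farthest and closest, and the 3 bins with the largest fall and rise.

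Block pairs with at least 10 counts on average were tested with edgeR 4.0.16 (TMM, quasi-likelihood), with DESeq2 1.42.0 as an alternative, and bins with limma 3.58.1, in R 4.3.3. Other steps used Python 3.11.15 and numpy 2.4.6. The scripts were tested on simulated data. Alternatives covered balancing, matrices, coverage limits, distance limits, corners, rankings, bin size, count filters, scaling, the replicate block and each sample left out.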

Additional observations from a re-analysis of the deposited data

Results flagged for a closer look

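The raw coverage of whole chromosomes differed between the groups, a measure that no comparison of the study used. Contacts per bin of chromosome 1 were 1.37 times as high in the L1 AMO samples as in the SCR AMO samples, relative to each sample's mean. For chromosome 14 the ratio was 1.33, and over the other 18 chromosomes it ran from 0.908 to 1.01. Contacts between chromosomes 1 and 14 were higher with L1 AMO, at a log2 ratio of 0.76, the highest of 190 pairs of chromosomes, where the median was -0.66. Both L1 AMO samples showed the higher coverage and both SCR AMO samples the lower one, so that these values cannot be told apart from the oligo.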

How the results depend on the processing

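Of 553 recomputed values, 432 stayed within the spread between replicates or within 1.5 times a count, and 6 turned direction. The alternatives with balancing on chromosome 2 alone, without chromosomes 1 and 14, with centred eigenvectors, and all those for kinds by distance were chosen after seeing the data. Values of measures are differences of L1 AMO minus SCR AMO. The fall of the B-B corner turned to 0.0384 without balancing and to 0.0241 with corners of 50%. The B-B log2 ratio turned to 0.0134 between 2 and 10 Mb without balancing, and between 10 and 40 Mb to 0.0147 with chromosome 2 balanced alone and 0.0542 without balancing. The pair B-iii and B-iv turned to 0.00513 without balancing.

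The A-A corner was -0.383 without balancing, -0.327 balanced alone, -0.279 with corners of 10%, -0.126 with corners of 50%, -0.138 with the ranking from other chromosomes, -0.247 for pairs beyond 10 Mb and -0.170 with 1-Mb bins. For the B-B corner these were -0.00862 balanced alone, -0.114 with corners of 10%, -0.0304 with the other ranking, -0.0559 beyond 10 Mb and -0.0500 with 1-Mb bins, and it was -0.0694 and -0.0573 with the first or second L1 AMO matrices alone, -0.0681 with a coverage limit of 0.5 and -0.0749 with the eigenvector of SCR AMO alone. The A-B corner was 0.146 and 0.0502 with corners of 10% and 50%, 0.123 with the eigenvector of SCR AMO alone and 0.101 beyond 10 Mb. Strength was -1.51 without balancing, -1.70 and -0.190 with corners of 10% and 50% and -0.965 with 1-Mb bins. With contacts within one bin left out, the share up to 2 Mb changed by -0.571 points and that from 2 to 10 Mb by 3.59 points, and with a limit of 5 Mb the latter was 1.28 points.

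Each sample left out in turn, the A-A corner ran from -0.264 to -0.204, the B-B corner from -0.0761 to -0.0644, the A-B corner from 0.103 to 0.125 and strength from -1.34 to -1.19. Block pairs that rose ran from 49 to 92 and those that fell from 124 to 245, the lowest of both without SCR AMO replicate 1. Bins that rose ran from 7 to 15 and bins that fell from 103 to 139. Sign switches ran from 18 to 22, where leaving out a sample can only keep or raise the count, and were 3 with centred eigenvectors. In chromosome 2, block pairs that rose numbered 44 without TMM normalization, 129 with the distance offset and 45 for blocks of at least 4 bins. Those that fell numbered 88 with the offset, 136 with DESeq2 and 119 for blocks of at least 4 bins. Bins that rose numbered 33 without balancing.

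Samples with the same replicate number share only a number. Their deviations had a correlation of 0.127 over 8996 block pairs and of 0.00589 over 5093 bins. With the replicate block, 89 block pairs rose and 245 fell, and 17 bins rose and 159 fell. The mean differences, -2.46 points beyond 10 Mb and -1.25 for strength, cannot change with such a block in this balanced design. Depth limits single bin pairs, of which 0.633% to 13.6% held no count.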
